A study of Homo sapiens with 18 samples.

Results

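The 10 genes described here belong to the interleukin-1 system, and were taken by symbol from the 58395 gene identifiers of the count table. They comprise the agonist ligands IL1A, IL1B, IL18, IL33 and IL36G, the receptor antagonist IL1RN, the processing protease CASP1, and the receptors IL1R1, IL1R2 and IL1RAP. Of the 10 genes, 8 had counts high enough to be tested, among 16794 genes tested in all. IL36G and IL1R2 did not pass the filter on low counts and are given as counts. IL1A, IL1B, IL1RN, IL36G, IL1R1 and IL1R2 lie on chromosome 2, IL18 and CASP1 on chromosome 11, IL33 on chromosome 9 and IL1RAP on chromosome 3.

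RNA was sequenced from BxPC-3, an established human pancreatic cancer cell line grown in serum-containing medium. Cells received HGF (hepatocyte growth factor, the ligand of the MET receptor) at 80 ng/ml, MSP (macrophage-stimulating protein, the ligand of the RON receptor) at 100 ng/ml, or phosphate-buffered saline as the vehicle, and RNA was taken at 1 h or 4 h. Each of the 6 groups had 3 libraries, so that HGF and MSP were each compared with vehicle of the same time, and the stated purpose was to compare how these ligands act through MET and RON. The labels describe triplicates without stating that each was a culture of its own, so the p-values reflect the spread among these libraries, which could be technical. A single cell line was used, and the ligand doses differed in mass.

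IL1A and IL1B both bind IL1R1, which then recruits IL1RAP and signals through MYD88 to NF-kB and stress kinases. IL1RN occupies IL1R1 without signalling, and IL1R2 is a decoy receptor that binds ligand without signalling. CASP1, activated in inflammasomes, cleaves the IL1B and IL18 precursors to their active forms, whereas IL1A is active as a precursor, and IL33 is a nuclear cytokine released from damaged epithelial cells that acts through the receptor IL1RL1. RNA levels, measured here, do not give the amount of processed or secreted protein.

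The stretches upstream of the start of IL1A, IL1B and IL33, the ligand genes whose RNA was higher after HGF, are printed to show what sequence lies before each. They come from RefSeq (GRCh38.p14) and give the 250 bases before an annotated start, 5′ to 3′ on the strand of the gene. IL1A and IL33 each have 2 such starts, and the one nearer the gene's GENCODE 29 start was used. The capitals mark the match to the AP-1 motif TGANTCA, the element bound by FOS and JUN dimers. The stretches are chr2:112784494-112784743 on the minus strand for IL1A, chr2:112836780-112837029 on the minus strand for IL1B and chr9:6215557-6215806 on the plus strand for IL33.
IL1A: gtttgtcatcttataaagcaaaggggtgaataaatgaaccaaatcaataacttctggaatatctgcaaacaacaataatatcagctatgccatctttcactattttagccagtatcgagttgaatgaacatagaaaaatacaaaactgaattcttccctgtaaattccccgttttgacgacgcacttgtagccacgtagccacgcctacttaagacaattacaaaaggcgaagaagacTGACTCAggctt
IL1B: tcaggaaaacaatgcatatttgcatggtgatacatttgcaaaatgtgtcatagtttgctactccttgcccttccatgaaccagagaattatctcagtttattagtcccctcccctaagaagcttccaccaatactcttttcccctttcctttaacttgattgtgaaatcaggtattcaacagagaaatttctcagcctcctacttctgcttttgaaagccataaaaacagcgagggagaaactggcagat
IL33: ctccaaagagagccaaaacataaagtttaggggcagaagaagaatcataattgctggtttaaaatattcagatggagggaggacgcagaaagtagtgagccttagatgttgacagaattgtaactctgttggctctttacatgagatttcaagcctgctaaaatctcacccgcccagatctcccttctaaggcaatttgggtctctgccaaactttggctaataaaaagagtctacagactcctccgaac

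The IL1A stretch held 1 AP-1 match, 12 bases before the start, and the IL1B and IL33 stretches held none. A second IL1A match lay 39 bases after this start, beyond the printed stretch. Counted from the other annotated IL1A start, both matches lay before it, at positions -105 and -55. Windows of 250 bases before to 50 bases after a start were held for 8 of the 10 genes, 16 windows in all, and were searched on both strands. AP-1 matches lay in 3 of the 16, namely both IL1A windows and 1 IL1RN window, against 7.72% of all 34943 windows. The IL1A windows overlap and hold the same sites, so these 3 windows stand for 2 genes. The same 16 windows held no match to the CRE motif TGACGTCA, the ETS motif CCGGAAG, the NF-kB motif or the SRF CArG box, which lay in 1.84%, 10.2%, 5.90% and 1.30% of all windows. No match overlapped a match to another motif. A match is a description of letters, and a window without one says only that these letters are not in it.

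Library totals ranged from 30556613 to 48477215 counts. CPM is a gene's count relative to the size of its library. The limit that a count of 0 sets is 3 counts, which equals 0.0619 to 0.0982 CPM of library totals and covers counting error only. ALDOA, an abundant glycolytic enzyme, had at most 3 counts in any library, so read assignment may also leave a gene near 0. All 12 epithelial and ductal markers reached 1 CPM. Their summed level was 12854 to 13720 CPM after HGF and 9520 to 10155 CPM in vehicle at 1 h. At 4 h it was 15113 to 16147 CPM after HGF and 11078 to 11447 CPM in vehicle. KRT17 made up much of these sums, at 3981 to 8111 CPM over all libraries. The sums thus do not give the direction of each of the 12 markers. Of 15 leukocyte markers, 3 (CD14, CD3E and S100A9) reached 1 CPM, MS4A1 and NKG7 had 0 counts in every library, and the summed level was 15.6 to 17.3 CPM after HGF and 15.2 to 17.3 CPM in vehicle at 4 h. Of 10 fibroblast markers, 5 (COL1A1, COL3A1, LUM, PDGFRA and ACTA2) reached 1 CPM, and the list summed to 18.3 to 22.5 CPM over all libraries. The 7 endothelial markers summed to 4.72 to 5.36 CPM after HGF at 4 h and 9.90 to 10.6 CPM in vehicle at 4 h. Of these 7, 4 (PECAM1, CDH5, VWF and ESAM) reached 1 CPM, and KDR and CLDN5 had 0 counts in every library. The part of these marker levels in the results below was not tested. In bulk RNA, fewer cells of a type and less RNA per cell cannot be told apart.

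The agonists IL1A and IL1B rose after HGF at both times, IL33 and the receptor subunit IL1RAP rose after HGF at 4 h, and IL18, CASP1 and IL1RN fell by smaller amounts at 4 h. After MSP, IL1A and IL1B rose at 1 h by smaller amounts than after HGF, and none of the 8 genes passed the test at 4 h. A gene was called where edgeR's quasi-likelihood test, adjusted over all 16794 genes by the Benjamini-Hochberg procedure, gave an adjusted p below 0.05, and every adjusted p below comes from that fit unless another is named. For HGF against vehicle at 1 h, 2 of the 8 genes were called and both were higher, where 21% of all genes tested were called, 13.8% higher and 7.16% lower. For HGF against vehicle at 4 h, 7 of the 8 were called, 4 higher and 3 lower, where 67.9% of all genes were called, 33.1% higher and 34.8% lower, so that a call at 4 h is by itself common. The median log2 fold change of the 8 genes was 0.02 at 1 h and 0.32 at 4 h of HGF, against 0.00 and -0.06 for all genes at the same times. The fit scales libraries to one another by TMM factors. Scaling by library totals instead moved the median of all genes by -0.10 at 1 h and by -0.29 at 4 h of HGF. Over all genes it called 1523 higher and 3590 lower at 1 h, where TMM scaling called 2317 higher and 1202 lower. At 4 h it called 3553 higher and 8732 lower, where TMM scaling called 5555 higher and 5846 lower. For MSP, 2 of the 8 were called at 1 h, both higher, where 0.834% of all genes were called, 0.78% higher and 0.0536% lower, and 0 of the 8 were called at 4 h, where 1.07% of all genes were called, 0.774% higher and 0.292% lower. At 4 h of MSP, 1 of the 8 (IL33) had an unadjusted p below 0.05 and DESeq2 called the same 1.

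**Figure D1:**
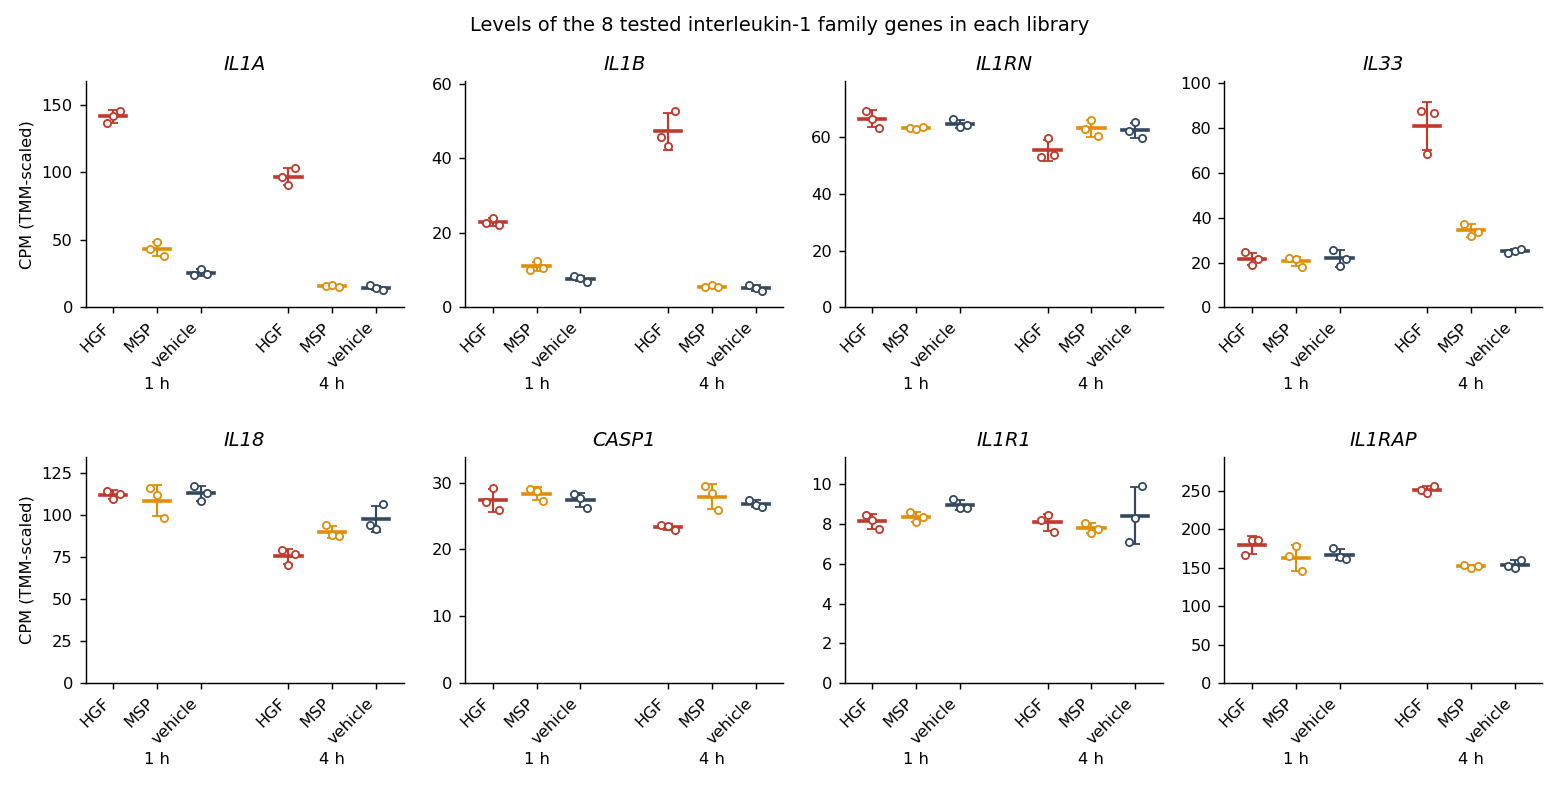
CPM of each tested interleukin-1 family gene in each of the 18 libraries, with HGF, MSP and vehicle side by side at 1 h and at 4 h, and axes from 0; points are libraries, thick bars group means and error bars the SD (n = 3). At 4 h every HGF library lies above every vehicle library for IL1A, IL1B, IL33 and IL1RAP, and below every vehicle library for IL18, IL1RN and CASP1. Such separation is common at 4 h of HGF, with 34.5% of all genes tested wholly above vehicle and 36.3% wholly below. The shares above and below were 20.1% and 15.6% for HGF at 1 h. For MSP they were 7.12% and 4.39% at 1 h and 9.85% and 9.13% at 4 h.

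IL1A encodes an agonist that is active without cleavage. At 1 h it was measured at 136, 142 and 146 CPM in the HGF libraries, at 43.4, 48.4 and 38.3 CPM in the MSP libraries and at 23.8, 28.5 and 24.7 CPM in the vehicle libraries. The 3 groups did not overlap, with HGF highest and vehicle lowest. The fold change was 5.51 for HGF against vehicle (log2 2.46 ± 0.08 SE, adjusted p = 1.29e-16) and 1.69 for MSP against vehicle (log2 0.76 ± 0.08, adjusted p = 3.38e-06). Set directly against MSP at 1 h, HGF was higher for IL1A by 1.71 ± 0.08 on the log2 scale (adjusted p = 6.60e-14).

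At 4 h IL1A stood at 96.3, 90.5 and 103 CPM after HGF, at 15.9, 16.8 and 14.8 CPM after MSP and at 16.2, 14.4 and 13.2 CPM in vehicle. The HGF libraries lay apart from the rest, whereas the MSP and vehicle libraries overlapped. IL1A was 6.63-fold higher after HGF than in vehicle (log2 2.73 ± 0.09, adjusted p = 1.31e-17), and the MSP difference was 0.12 ± 0.10 (adjusted p = 0.697). In vehicle itself the gene was lower at 4 h than at 1 h, by a log2 change of -0.82 ± 0.09 (adjusted p = 2.26e-06). The HGF response at 4 h exceeded that at 1 h by 0.27 ± 0.12, which did not pass the test (adjusted p = 0.0612). The mean CPM after HGF was 96.7 ± 6.34 at 4 h and 141 ± 4.77 at 1 h (SD, n = 3 each).

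IL1B encodes the agonist that needs cleavage before it is active. Its libraries read 22.6, 24.1 and 22.1 CPM after HGF at 1 h, 10.1, 12.4 and 10.7 CPM after MSP, and 8.36, 7.95 and 6.87 CPM in vehicle. Again no 2 of the 3 groups overlapped at 1 h. The fold change for HGF was 2.97 (log2 1.57 ± 0.10, adjusted p = 9.52e-14). For MSP the log2 fold change was 0.51 ± 0.10 (adjusted p = 0.00502), a call that was lost without vehicle replicate 3 of 1 h (adjusted p = 0.0804) and in a fit of the compared groups alone (adjusted p = 0.0597). Over its 13 alternatives the adjusted p ranged from 1.12e-06 to 0.0804.

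At 4 h the IL1B libraries read 45.8, 43.3 and 52.9 CPM after HGF, 5.32, 5.91 and 5.48 CPM after MSP and 6.06, 5.29 and 4.26 CPM in vehicle. All HGF libraries were above all others, and MSP overlapped vehicle. IL1B was 9.13-fold higher after HGF than in vehicle (log2 3.19 ± 0.10, adjusted p = 2.85e-21). The HGF response was larger at 4 h than at 1 h by 1.62 ± 0.14 (adjusted p = 9.82e-11). In vehicle the log2 change of 4 h against 1 h was -0.57 ± 0.12 (adjusted p = 0.000729).

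IL1A had its highest group mean after HGF at 1 h and IL1B after HGF at 4 h. Per kilobase of exon, the ratio of IL1A to IL1B within a library averaged 9.01 after HGF at 1 h and 4.87 in vehicle at 1 h, and 2.99 after HGF at 4 h and 4.13 in vehicle at 4 h.

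The antagonist IL1RN varied the least but for IL1R1 over the group means. At 1 h its libraries read 69.5, 66.6 and 63.5 CPM after HGF, 63.4, 63.0 and 63.7 CPM after MSP, and 66.5, 63.7 and 64.3 CPM in vehicle, and neither ligand passed the test. At 4 h they read 52.9, 59.7 and 53.8 CPM after HGF, 63.1, 66.2 and 60.4 CPM after MSP and 62.2, 65.3 and 59.9 CPM in vehicle. Every HGF library at 4 h was just below every vehicle library. The log2 fold change of IL1RN for HGF at 4 h was -0.17 ± 0.05 (adjusted p = 0.00457), and -0.46 with library totals.

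The balance of agonist to antagonist RNA was taken as a ratio within each library. Per kilobase of exon, IL1A relative to IL1RN was 3.01, 3.27 and 3.52 in the HGF libraries at 1 h, 1.05, 1.18 and 0.923 after MSP and 0.550, 0.686 and 0.589 in vehicle. At 4 h it was 2.79, 2.32 and 2.94 after HGF, 0.386, 0.389 and 0.375 after MSP and 0.399, 0.338 and 0.337 in vehicle. In HGF libraries IL1A RNA exceeded IL1RN RNA per kilobase at both times, and in every vehicle library it was below it. Relative to vehicle of the same time, the ratio of IL1A to IL1RN was 5.37-fold higher after HGF at 1 h and 7.49-fold higher at 4 h, and 1.73-fold after MSP at 1 h.

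IL1B relative to IL1RN stayed below 1 in vehicle and MSP libraries, and also in the HGF libraries at 1 h (0.343, 0.380 and 0.365). The 4 h values were 0.910, 0.763 and 1.03 after HGF, 0.0887, 0.0939 and 0.0954 after MSP and 0.102, 0.0852 and 0.0747 in vehicle. The fold of the mean ratio over vehicle was 2.89 for HGF at 1 h and 10.3 at 4 h. These ratios are taken within a library, so library scaling does not enter them, and no test was run on them.

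**Figure D2:**
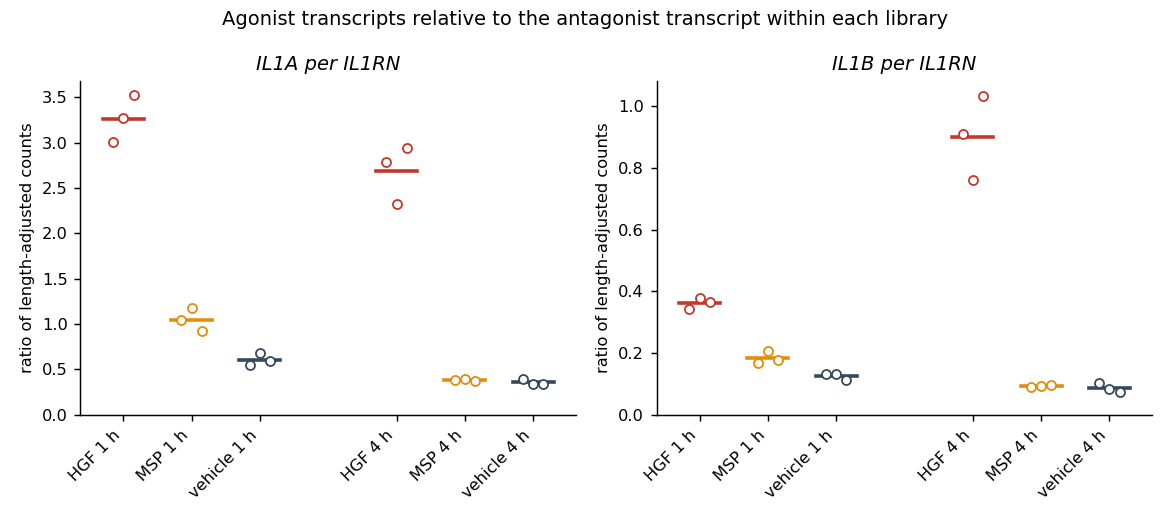
Within-library ratios of IL1A to IL1RN and of IL1B to IL1RN, each per kilobase of exon, for HGF, MSP and vehicle at 1 h and 4 h, on axes from 0; points are libraries and bars are group means. IL1A to IL1RN lies above 1 in all 6 HGF libraries and below 1 in all 6 vehicle libraries.

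IL33, the nuclear cytokine, passed no test against vehicle at 1 h. Its libraries read 24.5, 19.0 and 21.5 CPM after HGF at 1 h, 22.0, 21.4 and 18.2 CPM after MSP, and 25.7, 18.3 and 21.4 CPM in vehicle. At 4 h they read 87.9, 68.5 and 86.6 CPM after HGF, 37.3, 31.9 and 33.8 CPM after MSP and 24.3, 25.2 and 26.0 CPM in vehicle. The 3 groups did not overlap at 4 h. IL33 was 3.21-fold higher after HGF (log2 1.68 ± 0.13, adjusted p = 6.58e-09), and this response was larger than at 1 h by 1.69 ± 0.18 (adjusted p = 9.47e-07).

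For MSP at 4 h the IL33 difference was 0.45 ± 0.13 and its adjusted p was 0.130. All 3 MSP libraries were above all 3 vehicle libraries, as for 9.85% of all genes tested, with 9.13% wholly below. The gene was called in 5 of the alternative analyses of MSP at 4 h: without a filter on low counts (adjusted p = 0.0345), without robust estimation (0.0383), with a replicate block (0.0147), in a fit of the compared groups alone (0.000201) and with DESeq2 (0.00602). Over its 13 alternatives the adjusted p ranged from 0.000201 to 0.364. HGF exceeded MSP by 1.24 ± 0.12 on the log2 scale at 4 h (adjusted p = 2.14e-07). The receptor through which IL33 signals, IL1RL1, had 0 counts in every library.

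IL18 was the most abundant of the genes per kilobase in vehicle. Its libraries read 115, 109 and 113 CPM after HGF at 1 h and 117, 109 and 113 CPM in vehicle, with MSP between 98.4 and 116 CPM. At 4 h they read 79.1, 70.2 and 77.1 CPM after HGF, 94.1, 88.1 and 87.7 CPM after MSP and 94.4, 92.1 and 107 CPM in vehicle. The HGF libraries were the lowest at 4 h and the 1 h groups overlapped. The log2 fold change of IL18 for HGF at 4 h was -0.37 ± 0.06 (adjusted p = 3.35e-06), or -0.66 with library totals, and it differed from the response at 1 h by -0.37 ± 0.08 (adjusted p = 0.000505). In vehicle IL18 was lower at 4 h than at 1 h by a log2 change of -0.21 ± 0.06 (adjusted p = 0.0118), a call that was lost without vehicle replicate 1 of 1 h, or replicate 1 or 2 of 4 h (adjusted p 0.0563 to 0.0797).

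IL36G, an agonist typical of stressed epithelium, was near the detection limit. It had 7, 6 and 5 counts after HGF, 6, 2 and 2 after MSP and 6, 3 and 3 in vehicle at 1 h, and 10, 1 and 13 after HGF, 3, 5 and 2 after MSP and 5, 3 and 3 in vehicle at 4 h. The HGF libraries at 4 h overlapped both other groups. Without the filter on low counts, the log2 difference for HGF against vehicle at 4 h was 1.38 ± 0.66 (adjusted p = 0.0953). With 1 library left out, IL36G passed the filter in some fits, and was called without HGF replicate 2 of 4 h (adjusted p = 0.00525). It was not called without vehicle replicate 1 (0.0502), 2 (0.128) or 3 (0.136) of 4 h, or with DESeq2 (0.136).

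CASP1, the protease that cleaves pro-IL1B and pro-IL18, was measured at 27.1, 29.2 and 25.8 CPM after HGF at 1 h, 29.1, 28.8 and 27.2 CPM after MSP and 28.3, 27.8 and 26.3 CPM in vehicle. The 4 h libraries were at 23.7, 23.5 and 22.9 CPM after HGF, 29.5, 28.4 and 25.9 CPM after MSP and 27.4, 26.6 and 26.4 CPM in vehicle. All HGF libraries at 4 h were below all others. The log2 fold change of CASP1 for HGF at 4 h was -0.20 ± 0.06 (adjusted p = 0.00623), or -0.49 with library totals. Neither ligand passed the test for CASP1 at 1 h.

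The receptor genes differed from one another. IL1RAP, the shared signalling subunit, was measured at 166, 187 and 186 CPM after HGF at 1 h, 165, 178 and 145 CPM after MSP and 175, 164 and 162 CPM in vehicle, and the groups overlapped. The 4 h libraries stood at 252, 247 and 256 CPM after HGF, 154, 150 and 152 CPM after MSP and 152, 150 and 161 CPM in vehicle. The HGF libraries lay above the others, and MSP and vehicle overlapped. IL1RAP rose by 0.71 ± 0.05 on the log2 scale after HGF at 4 h (adjusted p = 1.98e-12), or by 0.42 with library totals, and the response was larger than at 1 h by 0.60 ± 0.08 (adjusted p = 1.29e-07).

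IL1R1, the ligand-binding receptor, was at 8.44, 8.22 and 7.73 CPM after HGF at 1 h, 8.62, 8.09 and 8.38 CPM after MSP and 9.26, 8.80 and 8.81 CPM in vehicle. All HGF and MSP libraries were below vehicle at 1 h, but neither ligand passed the test, and the log2 difference of -0.14 for HGF had an adjusted p of 0.342. Of all genes tested, 15.6% lay wholly below vehicle for HGF and 4.39% for MSP at 1 h. At 4 h it was at 8.18, 8.45 and 7.60 CPM after HGF, 8.07, 7.57 and 7.74 CPM after MSP and 7.07, 8.29 and 9.90 CPM in vehicle, and the groups overlapped. By library totals HGF was at 7.04, 7.11 and 6.42 CPM, below vehicle at 7.33, 8.61 and 10.3 CPM. The log2 difference for HGF at 4 h was -0.07 (adjusted p = 0.580), and with library totals it was -0.36 and called lower (adjusted p = 0.00250), the only call among its 13 alternatives, whose values ran from -0.36 to 0.07.

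The decoy IL1R2 was hardly detected. It had 2, 2 and 2 counts after HGF at 1 h, 3, 4 and 2 after MSP, and 1, 0 and 3 in vehicle. At 4 h it had 11, 6 and 14 counts after HGF, 2, 4 and 6 after MSP and 6, 4 and 5 in vehicle. In counts, the lowest HGF library at 4 h equalled the highest MSP and vehicle libraries. In CPM, HGF at 0.223 to 0.457 lay above MSP at 0.0440 to 0.162 and vehicle at 0.119 to 0.185. Without the filter on low counts, the log2 difference for HGF against vehicle at 4 h was 1.31 ± 0.62 (adjusted p = 0.0863). With 1 library left out, IL1R2 passed the filter in some fits. It was called without HGF replicate 2 (adjusted p = 0.0148) or vehicle replicate 1 of 4 h (0.0337). It was not called without vehicle replicate 2 (0.0826) or 3 (0.0648) of 4 h, or with DESeq2 (0.105).

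The HGF and MSP comparisons at each time share their vehicle libraries. The direct comparison of HGF with MSP called 2 of the 8 genes at 1 h, IL1A and IL1B, both higher after HGF, where 17.7% of all genes were called, 11.4% higher and 6.36% lower. At 4 h it called 7 of 8, the 4 genes IL1A, IL1B, IL33 and IL1RAP higher and the 3 genes IL18, CASP1 and IL1RN lower after HGF, where 66.4% of all genes were called, 32.7% higher and 33.8% lower. The interaction of HGF with time called 5 of the 8 genes, 3 higher (IL1B, IL33 and IL1RAP) and 2 lower (IL18 and IL1RN), where 53.2% of all genes were called, 26.8% higher and 26.4% lower. With library totals, all-gene calls were 1296 higher and 3112 lower for HGF against MSP at 1 h, 3320 and 8975 at 4 h, and 3117 and 6371 for the interaction of HGF with time. The interaction of MSP with time called IL1A alone, with a log2 difference of -0.64 ± 0.13 (adjusted p = 0.0189), where 0.322% of all genes were called, 0.0476% higher and 0.274% lower. This call was lost in a fit of the compared groups alone (adjusted p = 0.0617) and without any one of 7 libraries, vehicle replicates 1 and 3 and MSP replicate 1 at 1 h, and vehicle replicates 1 and 2 and MSP replicates 1 and 3 at 4 h (adjusted p 0.0563 to 0.0708). In vehicle, 3 of the 8 genes were lower at 4 h than at 1 h, where 20.9% of all genes were called, 10.9% higher and 9.99% lower.

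**Figure D3:**
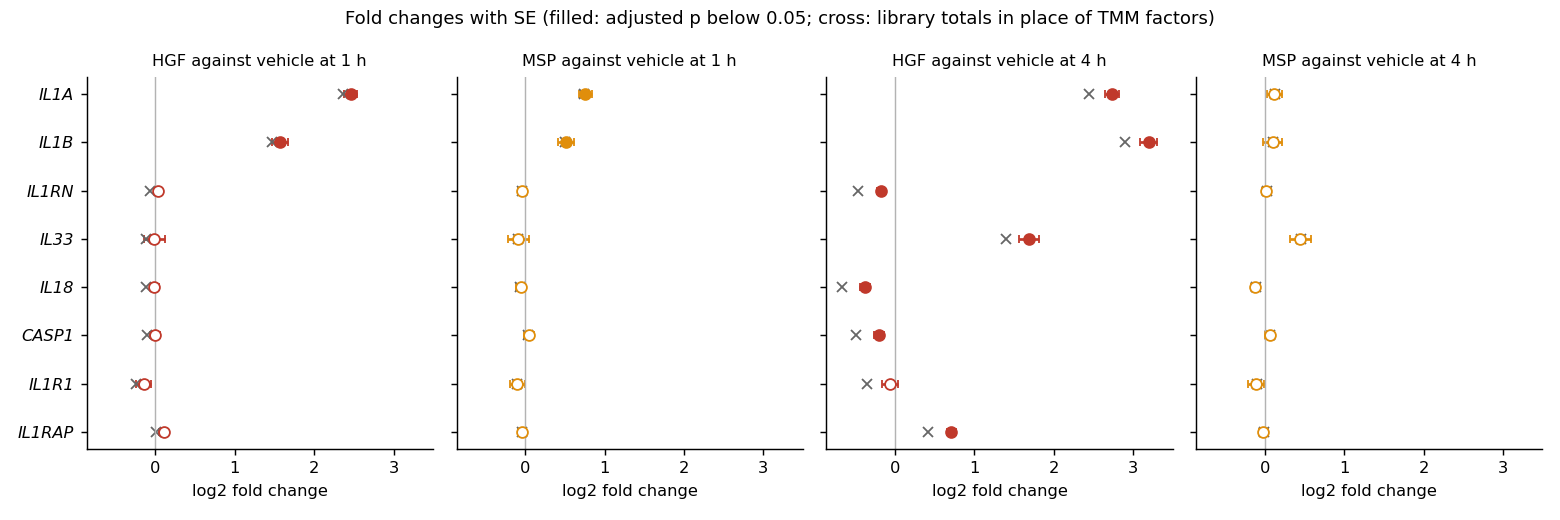
Log2 fold change of the 8 tested genes for HGF against vehicle and MSP against vehicle at 1 h and 4 h, from edgeR's quasi-likelihood fit; points are estimates, bars are the SE, filled points passed the test at an adjusted p below 0.05, and crosses are the values with library totals. IL1B and IL1A have the largest values after HGF at 4 h, 3.19 and 2.73.

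Levels can be compared between the genes per kilobase of exon. In vehicle at 1 h IL18 was highest with a mean of 43.0 CPM per kilobase, followed by IL1RN at 19.9, IL1RAP at 14.4 and IL1A at 12.1. CASP1 at 7.42 and IL33 at 6.71 CPM per kilobase overlapped, and IL1B at 2.49 was above IL1R1. IL36G and IL1R2 averaged 0.0721 and 0.0105 CPM per kilobase. After HGF at 1 h IL1A was first at 66.6 CPM per kilobase, above IL18 at 42.7.

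After HGF at 4 h IL1A was again first at 45.5 CPM per kilobase. IL18 at 28.7, IL33 at 24.9 and IL1RAP at 21.8 CPM per kilobase came next, with neighbours in this order overlapping between libraries, followed by IL1RN at 16.3 to 18.3 and IL1B at 15.3, which also overlapped. In vehicle at 4 h IL1A averaged 6.87 CPM per kilobase and overlapped CASP1 at 7.25. Among the tested genes with an exon length, the level of IL1B stood at percentile 81.0 after HGF and 40.5 in vehicle at 4 h, and that of IL18 at percentile 89.6 after HGF and 94.3 in vehicle at 4 h. Exon lengths are from GENCODE 29 and take all annotated exons, whether or not these cells use them.

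**Figure D4:**
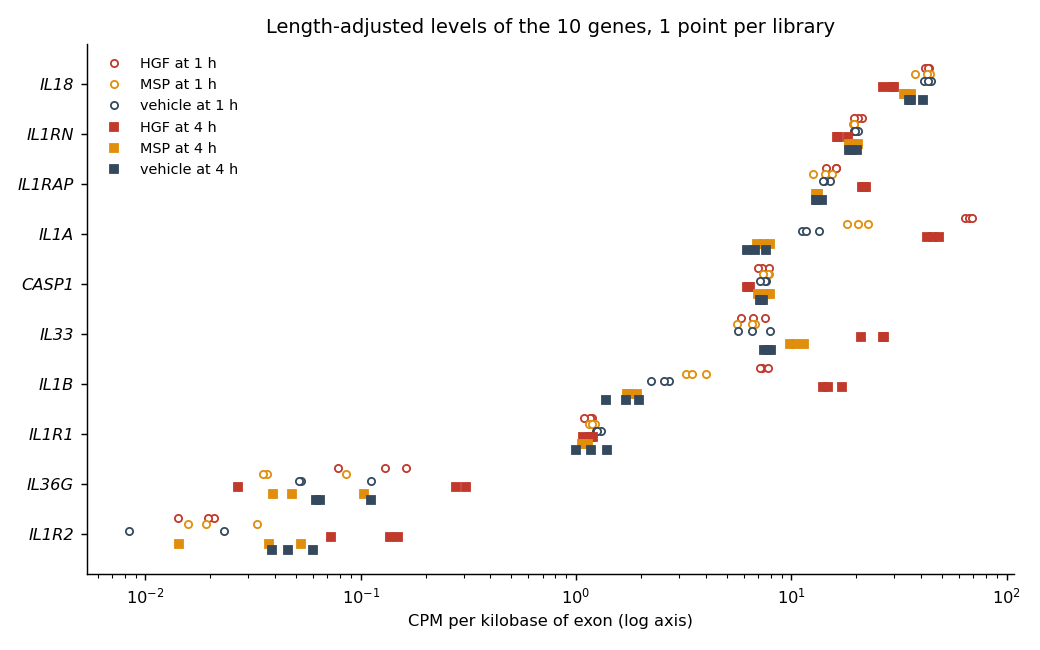
CPM per kilobase of exon of the 10 genes on a log axis, 1 point per library, with HGF, MSP and vehicle as colours, open circles at 1 h and filled squares at 4 h; the vehicle library with 0 counts of IL1R2 cannot be drawn. IL1A is the highest gene in both HGF groups, and IL18 in both vehicle and both MSP groups.

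Over the 6 group means, the genes whose log2 CPM pattern lay closest to that of IL1A, by root mean square difference after centring among 12462 candidates, were SPRY4 (0.17), ERRFI1 (0.19) and RHOB (0.22). For IL1B they were SPRED3 (0.14), F3 (0.16) and CDC42EP2 (0.19). For IL33 they were PUS7 (0.08), MYBBP1A (0.09) and DDX10 (0.09). The measure rests on 6 means, which is a description of shape.

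Other genes of the system were counted from 4 lists. Of 13 further family ligands and receptors, 4 were tested and 9 were too low. After HGF at 4 h IL18R1, a receptor subunit for IL18, rose to 27.1 ± 1.76 CPM, against 16.3 ± 0.417 CPM in vehicle (log2 0.73, adjusted p = 9.94e-11). IL18BP, which sequesters IL18, fell to 2.83 ± 0.180 CPM after HGF, against 3.93 ± 0.576 CPM in vehicle (adjusted p = 0.0119), and its exons share 675 bases with NUMA1 on the opposite strand. IL36RN, named after its values were seen, was the remaining call (log2 1.26, adjusted p = 0.0115). The list had 2 higher and 1 lower after HGF at 4 h (2 and 2 with library totals), where 67.9% of all genes were called. In each of the other 3 comparisons with vehicle 0 of the 4 were called, 0 had an unadjusted p below 0.05 and DESeq2 called 0. Of all genes, 21% were called for HGF at 1 h, 0.834% for MSP at 1 h and 1.07% for MSP at 4 h.

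Of 21 tested genes of receptor signalling, 7 rose and 1 fell after HGF at 1 h, where 13.8% of all genes were called higher and 7.16% lower, with a median log2 fold change of 0.09, against 0.00 for all genes, and 6 rose and 3 fell with library totals. MYD88, the adaptor of the receptor, was at 91.7 ± 5.15 CPM after HGF and 65.5 ± 2.40 CPM in vehicle at 1 h (log2 0.48, adjusted p = 4.22e-09). MAP3K8, a kinase, fell by 0.61 on the log2 scale at 1 h and by 1.77 at 4 h. At 4 h 9 rose and 8 fell, where 33.1% of all genes were called higher and 34.8% lower, with a median of 0.07, against -0.06 for all genes, and 7 rose and 11 fell with library totals. CHUK, a kinase of the NF-kB pathway, was at 60.6 ± 3.63 CPM after HGF and 18.5 ± 0.697 CPM in vehicle at 4 h, and UBE2N, a ubiquitin-conjugating enzyme, at 173 ± 1.31 CPM after HGF and 64.1 ± 2.43 CPM in vehicle. PELI2, a ubiquitin ligase, was at 3.69 ± 0.434 CPM after HGF and 19.8 ± 1.58 CPM in vehicle. After MSP none of the 21 was called at either time, by edgeR or by DESeq2, with 1 at 1 h and 5 at 4 h at an unadjusted p below 0.05 in edgeR. Of all genes, 0.834% were called at 1 h and 1.07% at 4 h of MSP, so 0 calls in a short list are common.

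Of 16 tested genes of inflammasomes and cytokine processing, 0 were called after HGF at 1 h by edgeR, where 21% of all genes were called. Of the 16, 4 had an unadjusted p below 0.05 at 1 h of HGF. DESeq2 called 1 higher and 1 lower, and 3 were called lower with library totals. At 4 h 4 rose and 7 fell, a share near that of all genes, of which 67.9% were called, 33.1% higher and 34.8% lower. The median log2 fold change of the 16 at 4 h was -0.09, against -0.06 for all genes, and with library totals 1 rose and 12 fell. AIM2, a DNA sensor, fell by 1.26 ± 0.12 on the log2 scale after HGF at 4 h (adjusted p = 1.46e-10). CAPN2, a calpain of the group that cleaves IL1A, was at 1075 ± 10.2 CPM after HGF and 474 ± 5.87 CPM in vehicle at 4 h. NINJ1, which acts in membrane rupture, was at 8.44 ± 0.931 CPM after HGF and 16.3 ± 1.47 CPM in vehicle. CARD16, close in sequence to the start of CASP1, was at 3.19 ± 0.391 CPM after HGF and 5.60 ± 0.538 CPM in vehicle, and how reads that fit both were counted is not known, so the small difference of CASP1 is uncertain to that extent. The adaptor PYCARD and the pore protein GSDMD had log2 fold changes of -0.41 and -0.31 at 4 h (adjusted p = 8.12e-05 and 0.00363), and both were named after their values were seen. After MSP 0 of the 16 were called at either time by edgeR or DESeq2, where 0.834% of all genes were called at 1 h and 1.07% at 4 h. In edgeR 2 of the 16 at 1 h and 1 at 4 h of MSP had an unadjusted p below 0.05. The sensor NLRP3 had at most 1 count in a library.

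Of 24 tested genes that interleukin-1 is known to induce, 15 rose and 1 fell after HGF at 1 h, where 13.8% of all genes were called higher and 7.16% lower. The list was chosen with earlier results of these data known, so its shares are a description and not independent evidence. The one that fell, NFKBIZ, was named after its values were seen. The median log2 fold change was 0.43, against 0.00 for all genes, and 13 rose and 3 fell with library totals. LIF, a cytokine, was at 79.3 ± 3.56 CPM after HGF and 7.02 ± 0.497 CPM in vehicle at 1 h, and TNFAIP3, an inhibitor of NF-kB signalling, at 161 ± 9.66 CPM after HGF and 24.6 ± 0.204 CPM in vehicle. At 4 h 12 rose and 5 fell, where 33.1% of all genes were called higher and 34.8% lower, with a median of 0.62, against -0.06 for all genes, and 12 rose and 9 fell with library totals. MMP1, a collagenase, was at 296 ± 8.98 CPM after HGF and 41.4 ± 2.89 CPM in vehicle, and CCL20, a chemokine, at 6.50 ± 0.241 CPM after HGF and 0.989 ± 0.128 CPM in vehicle. After MSP at 1 h 3 of the 24 rose, LIF (log2 0.61), ZC3H12A (0.57) and BCL3 (0.47), where 0.78% of all genes were called higher. At 4 h of MSP 0 of the 24 were called by edgeR or DESeq2, where 1.07% of all genes were called by edgeR. None of the 24 had an unadjusted p below 0.05 in edgeR at that time.

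Of 29 other genes checked, 8 share exon bases with another tested gene in GENCODE 29, so part of their counts may come from the partner. Among these 8 are TNFAIP3, MMP1, CHUK, UBE2N, PELI2 and IL18BP. PYCARD and GSDMD were not checked. Of the 10 family genes, IL1R1 and IL1RAP share exon bases with another gene. IL1R1 shares 11 with an antisense gene of at most 2 counts, and IL1RAP shares 535 with a gene of 0 counts.

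**Figure D5:**
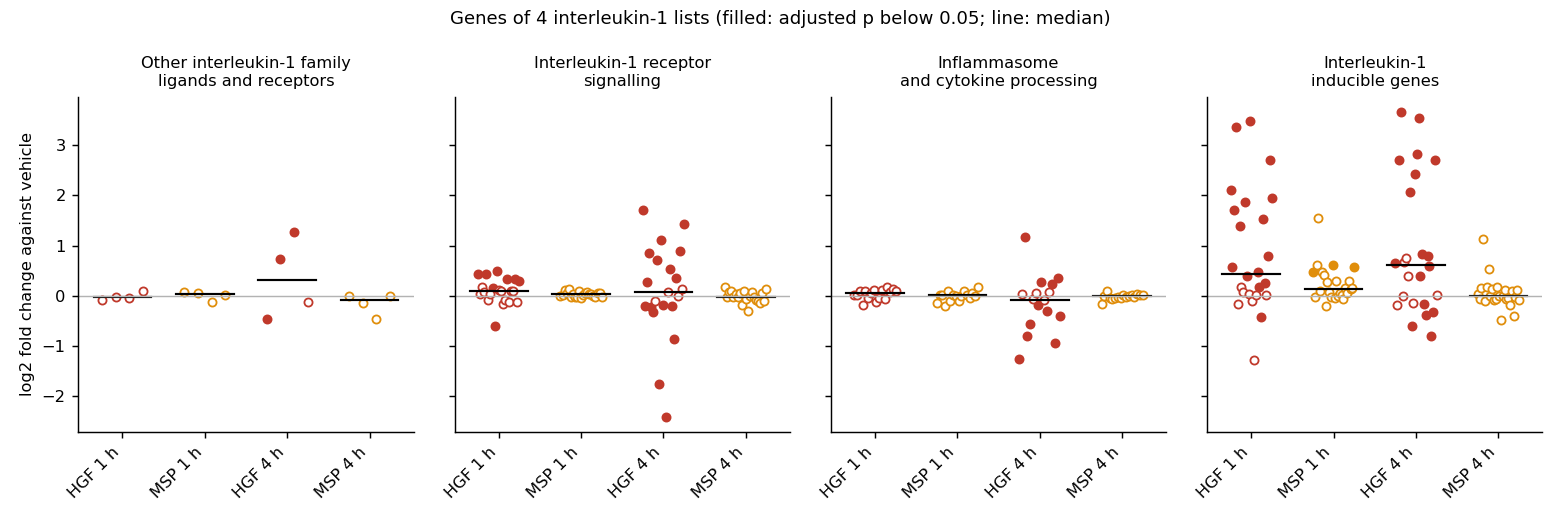
Log2 fold change against vehicle of each tested gene in 4 lists of further interleukin-1 system genes, for HGF and MSP at 1 h and 4 h; filled points passed the test at an adjusted p below 0.05 and lines are medians. Of the inducible genes, 15 are filled above 0 after HGF at 1 h, and 3 after MSP at 1 h, where 13.8% and 0.78% of all genes were called higher. The lists were chosen with earlier results of these data known.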

How the data were processed

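The authors deposited integer counts per Ensembl gene for all libraries in 1 table. The submitters' processing notes name STAR, featureCounts and Subread. Genome build, annotation and strand setting: not given in the sources used here. Libraries were prepared with a KAPA mRNA kit, per the labels. Symbols came from a table of gene names, and exon lengths and overlaps from GENCODE 29.

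Genes were kept by filterByExpr (minimum count 10, minimum total 15), scaled by TMM and fitted by the robust quasi-likelihood method (edgeR 4.0.16, limma 3.58.1, R 4.3.3) with 1 mean per group over 18 libraries (residual df 12). P-values were adjusted over 16794 genes, with a threshold of 0.05. An SE is the absolute log2 fold change divided by the square root of F. Log2 CPM used a prior count of 2. The fit was also run on simulated data of the 1 h comparisons, with few genes changed. That run does not cover changes as wide as those after HGF. Alternatives were other scalings, no filter, no robust estimation, a replicate block, the compared groups alone, DESeq2 1.42.0 and leaving out each library.

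The 10 genes and the lists were chosen with earlier results of these data known. Other genes were named by a rule: per list and comparison, the up to 4 called genes of largest change that averaged 1 CPM or more in the compared groups and whose ligand and vehicle libraries did not overlap. IL36RN, NFKBIZ, PYCARD, GSDMD and genes near 0 counts were named outside it. Depth was 30556613 to 48477215 counts per library.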

Additional observations from a re-analysis of the deposited data

Results flagged for a closer look

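The response to HGF differed between 4 h and 1 h, by the interaction of HGF with time in edgeR's quasi-likelihood fit, for 5 of the 8 genes. Of all genes tested, 53.2% were called in this interaction, so a call in it is by itself common. The difference of log2 fold changes, 4 h minus 1 h, was 1.62 for IL1B, 1.69 for IL33, 0.60 for IL1RAP and -0.37 for IL18, and these 4 kept the call in every alternative run. For IL1RN it was -0.21, and the call was lost without a filter on low counts, with DESeq2 and without any one of 4 libraries (vehicle replicate 2 or HGF replicate 1 at 1 h, vehicle replicate 2 or HGF replicate 1 at 4 h).

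The response to MSP differed between the times for IL1A alone, by -0.64, where 0.322% of all genes were called. The IL1A call was lost in 8 of 19 alternatives. No cause was tested for any of these differences.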

How the results depend on the processing

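Of 1032 alternative values of the single genes, 991 stayed on the same side of the threshold, and 25 of 29 called results were kept in every alternative. In 1 case the direction changed: IL1R1 for HGF against MSP at 4 h, 0.05 with TMM, was -0.25 with library totals (adjusted p = 0.0269). Among the 991, 39 values that were called in neither fit had the other sign, with a size of at most 0.122. Library totals moved the median of all genes by -0.10 for HGF at 1 h and -0.29 at 4 h, and the calls for all genes at 1 h were 65.8% higher with TMM and 29.8% with library totals. For MSP at 1 h, 2 genes were called, and 1 with the compared groups alone, with a range of 1 to 2 when a library was left out. For MSP at 4 h, 0 were called, and 1 without a filter, without robust estimation, with a replicate block, with the compared groups alone and with DESeq2. For MSP with time, 1 was called, and 0 with the compared groups alone, with a range of 0 to 1 when a library was left out.

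Libraries with the same replicate number deviated together in 1 of 45 pairs (r above 0.1, range -0.065 to 0.12). The median r was 0.031 for the same number and -0.013 for other numbers, and 14 of 18 libraries correlated best with their own number. Correlations this weak do not settle whether the numbers mark a pairing. The replicate block called CASP1 for HGF with time (adjusted p = 0.0346) and IL33 for MSP at 4 h (adjusted p = 0.0147), and changed no other call among the 8 genes. IL1A for HGF with time was called in 8 of 19 alternatives. Genes with counts near 0 (IL36G, IL1R2) were not tested in the main fit, and without a filter HGF exceeded MSP at 4 h for IL1R2 (log2 1.81, adjusted p = 0.0140) and IL36G (1.70, 0.0319).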

Other observations

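Several other family genes were near or at 0 counts in these cells. IL37, an anti-inflammatory ligand, had 1 to 11 counts per library, IL18RAP, a receptor subunit for IL18, 2 to 9, and the IL36 ligands IL36A and IL36B at most 1 and 2. IL1RL2, the receptor for the IL36 ligands, had at most 3 counts. IL6 and CSF3, cytokines known to be induced by interleukin-1, had at most 7 and 10 counts, and CCL2 at most 1.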
